A study of Mus musculus with 21 samples.

Results

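The 10 genes described here code for surface proteins of mouse hematopoietic stem cells (HSCs) and their progenitors, and some of them are used to sort these cells. The genes are Ly6a (Sca-1), Ly6e (Sca-2), Cd34, Slamf1 (CD150), Cd27, Cd47, Cd9, Cd93, Esam and Cd24a. They were taken by symbol, from a list made with earlier results of these data known. All 10 were found among the 19321 genes with values in the coculture libraries and among the 27968 genes of the sorted-cell libraries. Expression was measured by RNA-seq in 21 libraries, 3 for each of 7 groups, as FPKM, a fragment count scaled to transcript length and library size. Mouse embryonic stem cells (mESC, strain 129/ola, kept on feeder cells and sorted with anti-SSEA-1) were the starting cells, and their colonies after 3D induction were reseeded on OP9 stromal cells or on 0.1% gelatin. Total cells on day 5 gave the 3D+OP9 and 3D+0.1%gel groups, and the OP9 layer, stopped from dividing with mitomycin C, was part of the culture. From the OP9 coculture on day 5, the D5-LSKCD201+ and D5-LSKCD201- groups were sorted as Lin- Sca-1+ c-Kit+ cells with and without CD201, the endothelial protein C receptor. The same LSKCD201+ gate was set on bone marrow of C57BL/6 mice aged 6 to 8 weeks (BM-LSKCD201+) and on fetal liver of C57BL/6 embryos at E12.5 (FL-LSKCD201+). By the labels, strain and origin therefore changed together between the D5 and the BM or FL groups and cannot be told apart, although the methods name ESCs of both strains. The replicates of the sorted groups are described as biological.

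Sca-1 is a GPI-anchored protein of the Ly6 family and, with c-Kit, defines the LSK compartment in which mouse HSCs lie. Within that compartment CD34, a sialomucin shared with vascular endothelium, is low on resting adult HSCs and higher on progenitors and fetal HSCs, whereas CD150, a receptor of the SLAM family, is kept by HSCs as CD48 and CD244 appear on their progeny. CD93 and ESAM are proteins that HSCs share with endothelial cells, CD27 is a receptor of the TNF receptor family found on progenitors and lymphocytes, CD47 is the signal that restrains phagocytosis through SIRPα, CD9 is a tetraspanin, and CD24 is a small GPI-anchored glycoprotein of erythroid, neutrophil and B lineage precursors.

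The sorted cells were first compared with their labels. The blood cell gene Ptprc (CD45) was at 64.3 to 71.6 FPKM in BM-LSKCD201+ and 38.4 to 52.1 in FL-LSKCD201+, but at 0.305 to 0.602 in D5-LSKCD201+. The 8 blood progenitor markers summed to 1163 to 1303 FPKM in BM-LSKCD201+ and 1156 to 1328 in FL-LSKCD201+. Their sums were 74.2 to 76.1 in D5-LSKCD201+, 30.3 to 32.9 in D5-LSKCD201- and 13.6 to 14.5 in mESC. The genes of this list did not all follow the sum between the D5 groups. Of the 6 above 0.5 FPKM in both, 2 were called higher in D5-LSKCD201+ and 2 lower, by the thresholds given below. The shares of all such genes were 10.8% and 9.04%. The endothelial cadherin gene Cdh5 reached 67.6 to 73.6 FPKM in D5-LSKCD201+, and 8 endothelial markers summed to 1037 to 1071 there, against 139 to 153 in D5-LSKCD201- and 99.1 to 108 in BM-LSKCD201+. D5-LSKCD201- libraries carried Pou5f1, the pluripotency factor, at 249, 155 and 258 FPKM, and 8 pluripotency markers summed to 3749 to 4247, against 24.5 to 32.8 in D5-LSKCD201+. FL-LSKCD201+ libraries also held neutrophil and macrophage markers (2193 to 2495), erythroid markers (403 to 472) and hepatocyte markers (486 to 654). In 4 groups one library lay apart from the others: FL-LSKCD201+ replicate 1, BM-LSKCD201+ replicate 1, D5-LSKCD201- replicate 2 and 3D+OP9 replicate 3. Calls of the members that change without them are given so. In bulk libraries fewer cells of a type and less RNA per cell cannot be told apart.

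On GRCm38, Ly6a (74994877 to 74998031, minus strand) and Ly6e (74955051 to 74959905, plus strand) lie near each other on chromosome 15. Cd34 (194938819 to 194961279) and Slamf1 (171767127 to 171801184) are on the plus strand of chromosome 1, and Cd27 (125232622 to 125237010) and Cd9 (125460266 to 125494791) on the minus strand of chromosome 6. Cd47 lies on chromosome 16 (49800533 to 49915010, plus), Cd93 on chromosome 2 (148436640 to 148443563, minus), Esam on chromosome 9 (37528078 to 37538319, plus) and Cd24a on chromosome 10 (43578284 to 43584265, plus). For Cd34 the deposited locus ran over 153431 bases and was also listed for 8 other genes, and the loci of Cd27 and Cd9 were each shared with 2 other genes. Of the 75-base stretches of the annotated Ly6a transcripts, 6.33% also occurred in 2 other genes, mostly in Ly6c1, and this share was at most 2.23% for the other members. How reads of such neighbours and relatives entered the values was not tested.

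Promoter sequences from RefSeq (GRCm38.p6) were matched by symbol for 5 of the 10 genes. The 250 bases before the start are shown for Cd34, Slamf1, Cd27 and Cd9, because these genes show different patterns across the groups. Cd34 was high in every LSKCD201+ group, Slamf1 and Cd27 were above 0.5 FPKM in FL and BM alone, and Cd9 was highest in mESC and D5-LSKCD201- cells. They run 5′ to 3′ on the gene's own strand, from chr1:194938571-194938820 (plus) for Cd34, chr1:171766882-171767131 (plus) for Slamf1, chr6:125237028-125237277 (minus) for Cd27 and chr6:125494761-125495010 (minus) for Cd9. Capitals mark a match on either strand to the ETS core AGGAAG or to the E-box CAGGTG.
Cd34: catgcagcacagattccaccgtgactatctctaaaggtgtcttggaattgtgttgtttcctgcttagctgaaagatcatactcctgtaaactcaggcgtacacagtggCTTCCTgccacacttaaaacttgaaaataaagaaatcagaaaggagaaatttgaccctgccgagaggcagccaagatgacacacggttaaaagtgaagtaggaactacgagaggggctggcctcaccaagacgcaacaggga
Slamf1: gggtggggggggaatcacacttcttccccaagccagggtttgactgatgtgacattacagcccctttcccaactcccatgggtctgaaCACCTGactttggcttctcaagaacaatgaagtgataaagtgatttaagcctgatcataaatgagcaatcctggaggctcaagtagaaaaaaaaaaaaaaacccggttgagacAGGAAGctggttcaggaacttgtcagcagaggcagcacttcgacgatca
Cd27: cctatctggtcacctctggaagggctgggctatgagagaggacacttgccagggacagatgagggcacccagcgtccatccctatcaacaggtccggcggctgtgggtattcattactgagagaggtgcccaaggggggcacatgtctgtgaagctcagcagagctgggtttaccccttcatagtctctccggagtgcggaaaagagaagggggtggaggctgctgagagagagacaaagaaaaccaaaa
Cd9: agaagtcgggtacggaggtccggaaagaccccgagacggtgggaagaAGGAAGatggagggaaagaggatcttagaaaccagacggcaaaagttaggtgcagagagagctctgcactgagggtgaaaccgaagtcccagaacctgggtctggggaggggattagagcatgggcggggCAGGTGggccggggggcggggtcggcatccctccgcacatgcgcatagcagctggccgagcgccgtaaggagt
The ETS core was found once in Cd34, once in Slamf1 and once in Cd9, the E-box once in Slamf1 and once in Cd9, and neither in Cd27. Among 32851 RefSeq promoters of this length, 29.5% held the ETS core and 17.2% the E-box. None of these 4 windows held the GATA core AGATAA, the RUNX core TGTGGT or the TATA box TATAAA, which were in 9.99%, 14.0% and 12.4% of all promoters. CpG dinucleotides numbered 6 in Cd34, 3 in Slamf1, 5 in Cd27 and 16 in Cd9, against a median of 6 over all promoters. A match describes the letters in the window and nothing about binding.

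Ly6a was expressed in every sorted LSK group and was highest in bone marrow. Its levels were 189, 216 and 218 FPKM for BM-LSKCD201+, 64.2, 57.6 and 62.1 for D5-LSKCD201+, 45.8, 36.8 and 39.1 for FL-LSKCD201+, 32.1, 31.7 and 33.8 for D5-LSKCD201- and 1.38, 1.48 and 1.93 for mESC. No library of one group reached into the next group in that order. Because Sca-1 protein was part of the LSK gate, the distance from mESC, 4.59 on the log2 scale for D5-LSKCD201+, describes the sort. Within the gate, D5-LSKCD201+ cells (61.3 ± 3.37, mean ± SD, n = 3) held 3.39-fold less Ly6a than BM-LSKCD201+ cells (208 ± 16.4), a log2 difference of -1.74 ± 0.07 (SE, adjusted p = 3.23e-07). Log2 differences here and in the rest of the text are of log2(FPKM + 1), so they understate the ratio of mean FPKM, given as the fold, for genes of low level. Adjusted p come from limma with Benjamini-Hochberg adjustment over all genes tested in a comparison, which needed a mean of 0.5 FPKM over both groups. A gene was called with an adjusted p under 0.05 and a log2 difference of at least 1 in size. A gene that passed that filter through the group where it is high alone had to differ, and such genes are given by their levels. Against FL-LSKCD201+ the difference was small, at 0.59 ± 0.10 (adjusted p = 0.00142), and against D5-LSKCD201- it was 0.89 ± 0.06 (adjusted p = 1.5e-05), so that neither was called although the libraries did not overlap.

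Ly6e, the Ly6 protein also known as Sca-2 or thymic shared antigen, had a different order. It was at 709, 794 and 832 FPKM for BM-LSKCD201+, 344, 313 and 308 for FL-LSKCD201+, 262, 309 and 280.5 for D5-LSKCD201-, 58.4, 55.9 and 58.0 for mESC and 34.7, 32.0 and 33.8 for D5-LSKCD201+. The D5-LSKCD201+ libraries were thus the lowest of the 15, below mESC. D5-LSKCD201- differed from FL by -0.18 ± 0.11 on the log2 scale (adjusted p = 0.199), and overlapped it only through D5-LSKCD201- replicate 2, which lay apart. Over all alternatives this difference ranged from -0.34 to -0.09 (limma adjusted p from 0.0581 to 0.595). D5-LSKCD201+ cells held 8.48-fold less Ly6e than D5-LSKCD201- cells (-3.04 ± 0.07, adjusted p = 1.28e-07), 9.60-fold less than FL-LSKCD201+ cells (-3.22, adjusted p = 1.19e-07) and 23.3-fold less than BM-LSKCD201+ cells (-4.50, adjusted p = 3.46e-09). The difference from mESC, -0.76 ± 0.04 (adjusted p = 2.3e-07), was below the fold threshold.

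**Figure D1:**
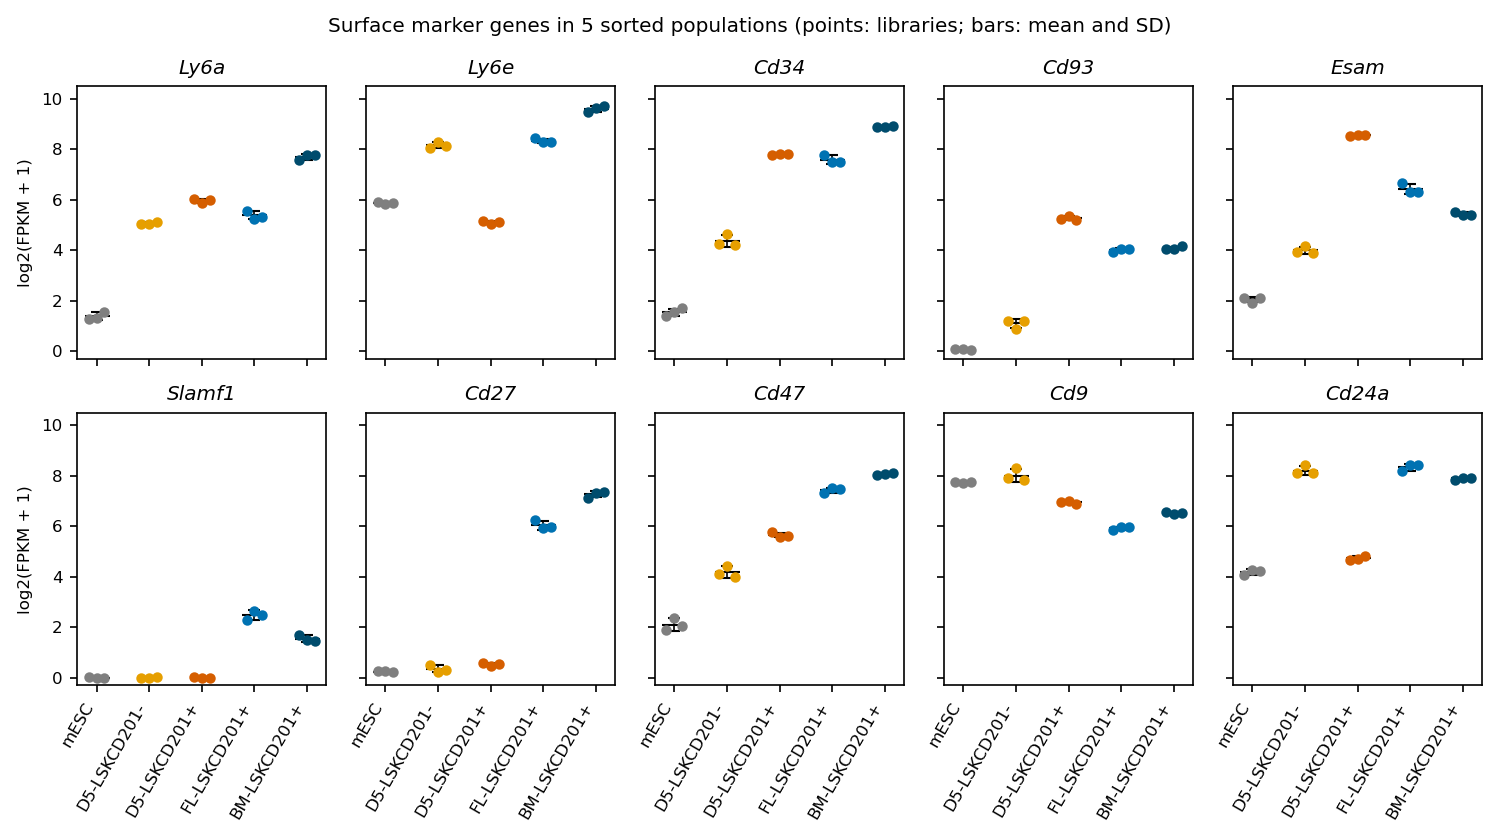
Level of each of the 10 genes as log2(FPKM + 1) in the 15 sorted-cell libraries, with 1 point for each library and bars for the mean and SD of these log2 values in each group of 3. Slamf1 and Cd27 are near 0 outside the FL and BM groups, Esam and Cd93 are highest in D5-LSKCD201+ (means 373 and 37.3), and Ly6e is lowest there (33.5, all mean FPKM).

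The pair of Ly6 genes changed places between the groups. The ratio of Ly6e to Ly6a FPKM was 0.546 in D5-LSKCD201+, where it lay between 0.540 and 0.555 in the 3 libraries, and 3.75 in BM-LSKCD201+, 7.95 in FL-LSKCD201+, 8.73 in D5-LSKCD201- and 36.6 in mESC. D5-LSKCD201+ was the one group with more Ly6a than Ly6e.

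Cd34 was high in all 3 LSKCD201+ groups. It was at 472, 474 and 479 FPKM for BM-LSKCD201+, 219, 225 and 224 for D5-LSKCD201+, 219.7, 178 and 176 for FL-LSKCD201+, 18.01, 23.7 and 17.3 for D5-LSKCD201- and 1.63, 1.89 and 2.22 for mESC. The D5-LSKCD201+ and FL-LSKCD201+ libraries overlapped only through FL-LSKCD201+ replicate 1, which lay apart, with a difference of 0.23 ± 0.10 (adjusted p = 0.0849). Over all alternatives this difference ranged from 0.17 to 0.40 (limma adjusted p from 3.11e-05 to 0.392), under the fold threshold. Cd34 was 11.3-fold higher in D5-LSKCD201+ (223 ± 3.23, n = 3) than in D5-LSKCD201- (19.7 ± 3.47), at 3.45 ± 0.11 (adjusted p = 4.14e-07), and 117-fold higher than in mESC. It was 2.13-fold lower than in BM-LSKCD201+ (-1.09 ± 0.04, adjusted p = 1.66e-07), a call that was lost at -0.89 when FPKM were rescaled to TPM. FL-LSKCD201+ was lower than BM-LSKCD201+ by 2.48-fold (-1.32, adjusted p = 9.04e-05).

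Cd93, the transmembrane lectin also called AA4.1, was highest in D5-LSKCD201+ at 36.9, 39.4 and 35.6 FPKM. It was at 15.5, 15.6 and 16.7 for BM-LSKCD201+, 14.3, 15.6 and 15.4 for FL-LSKCD201+ and 1.31, 0.847 and 1.303 for D5-LSKCD201-, and at most 0.070 in mESC. The BM and FL libraries overlapped only through BM-LSKCD201+ replicate 1, which lay apart (-0.07 ± 0.09, adjusted p = 0.53). The sign of this uncalled difference turned under quantile normalization. D5-LSKCD201+ held 32.4-fold more than D5-LSKCD201- (4.16 ± 0.11, adjusted p = 2.15e-07), 2.47-fold more than FL-LSKCD201+ (1.25, adjusted p = 7.29e-06) and 2.34-fold more than BM-LSKCD201+ (1.18, adjusted p = 1.09e-06).

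Esam, an adhesion molecule of endothelial junctions, had the largest log2 difference between the D5 groups of the 8 members tested there with a pseudocount of 1, whereas with 0.1 that of Cd93 was larger (4.92, with 4.64 for Esam). Its levels were 365, 378 and 374 FPKM for D5-LSKCD201+, 99.8, 77.5 and 78.0 for FL-LSKCD201+, 44.6, 40.5 and 40.8 for BM-LSKCD201+, 14.2, 16.8 and 13.9 for D5-LSKCD201- and 3.31, 2.79 and 3.31 for mESC. Each group lay apart from its neighbours. D5-LSKCD201+ was 24.9-fold above D5-LSKCD201- (4.56 ± 0.08, adjusted p = 4.5e-08), 4.38-fold above FL-LSKCD201+ (2.13, adjusted p = 4.1e-06) and 8.88-fold above BM-LSKCD201+ (3.12, adjusted p = 4.58e-09). FL-LSKCD201+ exceeded BM-LSKCD201+ by 2.03-fold, at 0.99 ± 0.12 (adjusted p = 0.000396), just under the fold threshold, and the difference was 1.04 without BM-LSKCD201+ replicate 1, 1.06 without FL-LSKCD201+ replicate 2 and 1.05 without FL-LSKCD201+ replicate 3, but 0.88 without FL-LSKCD201+ replicate 1, the library that lay apart. Relative to D5-LSKCD201-, Cd34, Cd93 and Esam rose in D5-LSKCD201+ with the endothelial markers given above. Cd34 was higher in BM-LSKCD201+ than in D5-LSKCD201+ (means 475 and 223 FPKM). The endothelial markers summed to 99.1 to 108 FPKM in BM-LSKCD201+ and 1037 to 1071 in D5-LSKCD201+. The 8 stromal markers summed to 90.2 to 94.3 FPKM in D5-LSKCD201+ and 35.8 to 69.5 in D5-LSKCD201-. Their sums were 12.01 to 14.67 in FL-LSKCD201+ and 6.42 to 6.85 in BM-LSKCD201+, and 1 of the 8 was at 0 throughout in BM. The part of endothelial and stromal cells in the result was not tested. Relative to Cd34, Esam was at 1.67 in D5-LSKCD201+ and in mESC, 0.765 in D5-LSKCD201-, 0.444 in FL-LSKCD201+ and 0.0884 in BM-LSKCD201+.

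Slamf1 was detected in FL-LSKCD201+ and BM-LSKCD201+ and was near 0 elsewhere. It was at 3.86, 5.36 and 4.64 FPKM for FL-LSKCD201+ and 2.28, 1.80 and 1.76 for BM-LSKCD201+, whereas the other 9 libraries ranged from 0 to 0.027. The gene passed the filter only through its FL or BM level, so no fold or test is given against the other groups. FL and BM libraries did not overlap, and FL was higher by 2.37-fold, at 0.93 ± 0.15 (adjusted p = 0.00143), which misses the fold threshold. Neutrophil and macrophage markers were also higher in FL (summed to 2193 to 2495 FPKM, with 514 to 558 in BM). Both groups were sorted as Lin- cells, and the part of such cells in the Slamf1 level was not tested. The log2 difference was 1.03 without FL-LSKCD201+ replicate 1 and 1.01 without BM-LSKCD201+ replicate 1, and so past the fold threshold.

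Cd27 was likewise a gene of the FL and BM groups. It was at 139, 160.2 and 162 FPKM for BM-LSKCD201+ and 75.6, 60.3 and 61.2 for FL-LSKCD201+, but at 0.493, 0.368 and 0.463 for D5-LSKCD201+, 0.439, 0.185 and 0.249 for D5-LSKCD201- and 0.208, 0.196 and 0.165 for mESC. The D5 groups overlapped each other, and as for Slamf1 no fold or test is given against them, since the gene passed the filter only through FL or BM. FL-LSKCD201+ was lower than BM-LSKCD201+ by 2.34-fold (-1.22 ± 0.12, adjusted p = 0.000153).

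Cd47 was intermediate in D5-LSKCD201+. Its levels were 260.5, 270.1 and 278 FPKM for BM-LSKCD201+, 159.7, 181 and 179 for FL-LSKCD201+, 53.2, 47.2 and 48.6 for D5-LSKCD201+, 16.5, 20.7 and 15.1 for D5-LSKCD201- and 2.70, 4.23 and 3.17 for mESC, with no overlap between any of the groups. D5-LSKCD201+ was 2.84-fold above D5-LSKCD201- (1.47 ± 0.12, adjusted p = 2.97e-05) and 14.8-fold above mESC. It was 3.49-fold below FL-LSKCD201+ (-1.78, adjusted p = 2.47e-06) and 5.43-fold below BM-LSKCD201+ (-2.42, adjusted p = 2.1e-08).

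Cd9 ran the other way to most of the genes. It was at 241, 316 and 226 FPKM for D5-LSKCD201-, 215, 211 and 216 for mESC, 123, 129 and 117 for D5-LSKCD201+, 95.1, 88.6 and 91.9 for BM-LSKCD201+ and 56.3, 61.2 and 61.4 for FL-LSKCD201+. D5-LSKCD201- did not overlap mESC but did not differ past the threshold (0.27 ± 0.12, adjusted p = 0.0948). Over all alternatives this difference ranged from 0.12 to 0.37 (limma adjusted p from 0.0302 to 0.201). D5-LSKCD201+ was lower than D5-LSKCD201- by 2.13-fold (-1.07 ± 0.12, adjusted p = 0.000208). That call was lost at -0.92 without D5-LSKCD201- replicate 2, the highest library, and at -0.97 under quantile normalization and -0.98 on a TPM scale. Against FL-LSKCD201+, D5-LSKCD201+ was 2.06-fold higher (1.03 ± 0.07, adjusted p = 1.82e-05), a call lost at 0.99 without FL-LSKCD201+ replicate 1 and, by a value just under the threshold, without D5-LSKCD201+ replicate 2. Against BM-LSKCD201+ the difference of 0.41 ± 0.05 (adjusted p = 0.00018) was below the fold threshold.

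Cd24a split the D5 groups in the opposite direction to Cd34. It was at 289, 342 and 346 FPKM for FL-LSKCD201+, 275, 342 and 275 for D5-LSKCD201-, 231, 241 and 241 for BM-LSKCD201+, 24.7, 25.4 and 27.5 for D5-LSKCD201+ and 15.8, 18.4 and 17.8 for mESC. FL and D5-LSKCD201- libraries overlapped only through D5-LSKCD201- replicate 2, which lay apart (-0.13 ± 0.14, adjusted p = 0.424). Over all alternatives that difference ranged from -0.31 to -0.04 (limma adjusted p from 0.0392 to 0.903), under the fold threshold. D5-LSKCD201+ lay next to mESC (0.55 ± 0.07, adjusted p = 5.14e-05). D5-LSKCD201+ held 11.5-fold less than D5-LSKCD201- (-3.47 ± 0.10, adjusted p = 2.39e-07), 12.6-fold less than FL-LSKCD201+ (-3.60, adjusted p = 1.83e-07) and 9.19-fold less than BM-LSKCD201+ (-3.15, adjusted p = 5.16e-09). The ratio of Cd24a to Cd34 was 0.116 in D5-LSKCD201+, 0.501 in BM-LSKCD201+, 1.73 in FL-LSKCD201+ and 15.2 in D5-LSKCD201-. Erythroid and neutrophil precursors carry CD24, and the markers of both in FL-LSKCD201+, sorted as Lin- cells, are given above. Erythroid markers summed to 49.9 to 121 FPKM in D5-LSKCD201- and 30.8 to 50.7 in D5-LSKCD201+. Neutrophil and macrophage markers summed to 21.4 to 22.4 and 9.91 to 10.4. The part of such cells in the Cd24a levels was not tested.

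**Figure D2:**
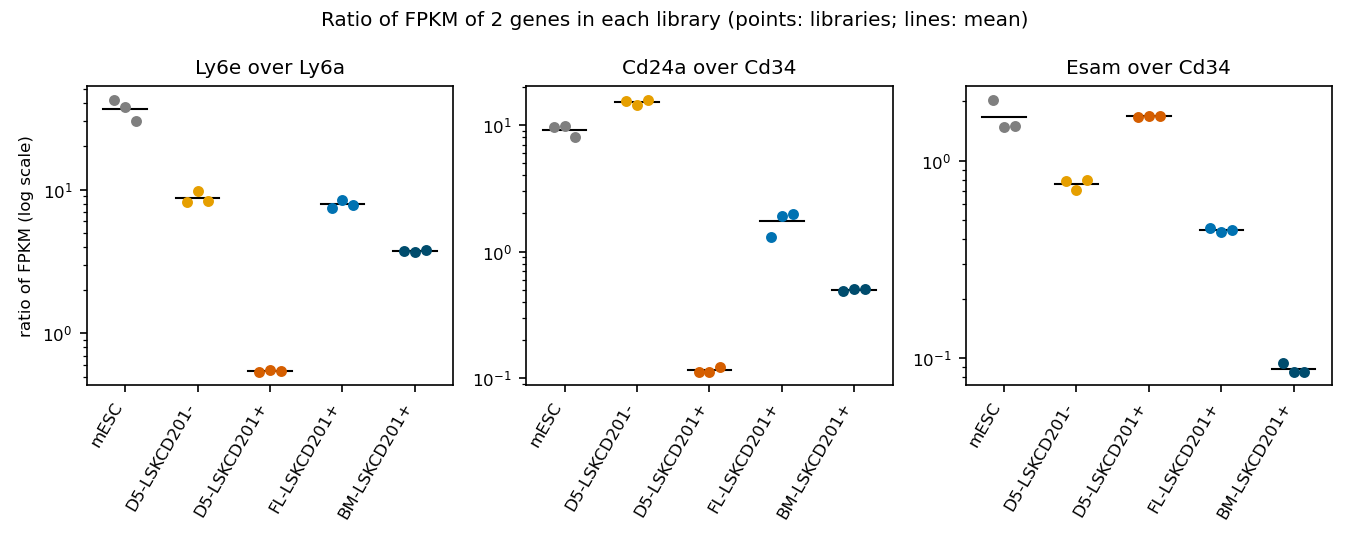
Ratios of FPKM within each sorted-cell library on a log axis, for Ly6e to Ly6a, Cd24a to Cd34 and Esam to Cd34, with 1 point for each library and a line for the mean of each group of 3. D5-LSKCD201+ has the lowest Ly6e to Ly6a (0.546) and Cd24a to Cd34 (0.116) ratios of the 5 groups.

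D5-LSKCD201+ cells were compared with their CD201- counterpart and with the native LSKCD201+ cells to ask how far the levels of these genes differ. Against D5-LSKCD201-, 8 of the 10 genes were tested, and 4 were called higher (Cd34, Cd47, Cd93 and Esam) and 3 lower (Ly6e, Cd9 and Cd24a), while 10.8% of all genes tested were called higher and 13.9% lower. Against FL-LSKCD201+, 3 of 10 were called higher (Cd9, Cd93 and Esam) and 5 lower, with backgrounds of 15.1% and 19.6%. The lower ones were Ly6e, Cd47 and Cd24a and, through their FL level alone, Slamf1 and Cd27. Among the 8 members above 0.5 FPKM in both groups the count was thus 3 higher and 3 lower, with 12.2% and 15.8% of all genes so chosen. Against BM-LSKCD201+, 2 were called higher (Cd93 and Esam) and 7 lower, with 17.5% and 27.2% of all genes. The lower ones were Ly6a, Ly6e, Cd34, Cd47 and Cd24a and, again through one group alone, Slamf1 and Cd27. Above 0.5 FPKM in both groups, 2 of 8 were higher and 5 lower, with 13.7% and 23.6% of all genes. The median gene differed by -0.23 in that last comparison, and by -0.03 after quantile normalization. In that comparison 39.1% of all calls were higher, and 49.1% after quantile normalization.

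**Figure D3:**
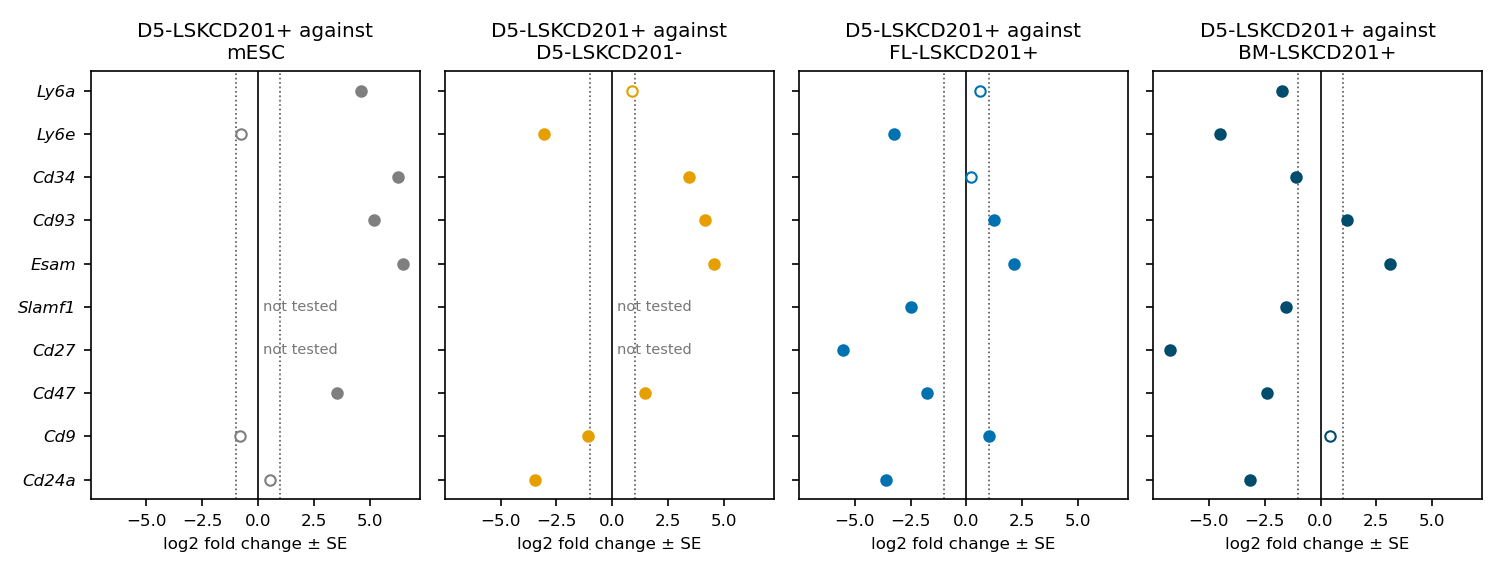
Log2 differences (log2 of FPKM + 1, bars for the SE) of D5-LSKCD201+ from each of the other 4 sorted groups for the 10 genes, with filled points called and open points not called, and dotted lines at the fold threshold. Esam and Cd93 lie to the right in all 4 comparisons (4.56 and 4.16 against D5-LSKCD201-), and Ly6e lies to the left in all 4, while Slamf1 and Cd27 against FL and BM, and Cd93 against mESC, passed the filter through one group alone.

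Against mESC, 5 of 8 tested genes were called higher in D5-LSKCD201+ (Ly6a, Cd34, Cd47, Cd93 and Esam) and none lower, with 19.5% and 18.1% of all genes. In D5-LSKCD201-, 7 of 8 were called higher (those 5 with Ly6e and Cd24a) and none lower, with 10.9% and 3.48% of all genes, and 75.7% of all calls in that comparison were higher, or 61.1% after quantile normalization, where Cd93 was no longer called (0.91). Both comparisons share the mESC libraries. FL-LSKCD201+ had 9 called higher than mESC and Cd9 lower (24.2% and 18.1% of all genes), and BM-LSKCD201+ gave the same count (30.7% and 22.4%). In these comparisons with mESC, Cd93, and for FL and BM also Slamf1 and Cd27, passed the filter through the other group alone. Without them the members called higher than mESC were 4 of 7 in D5-LSKCD201+, with 16.8% of all genes above the filter in both groups. They were 6 of 7 in D5-LSKCD201- (7.97% of all such genes), in FL-LSKCD201+ (19.8%) and in BM-LSKCD201+ (26.5%). Ly6a, whose protein was in the gate, is one of them each time, and without it 3 of 6 and 5 of 6 remain. Between the native groups, none of the 10 was called higher in FL-LSKCD201+ and 4 were called lower (Ly6a, Ly6e, Cd34 and Cd27), with 7.78% and 11.3% of all genes. Ly6a had the largest of these differences, at -2.33 ± 0.11 (adjusted p = 7.19e-06). Slamf1 and Esam were called higher under quantile normalization, on a TPM scale and without BM-LSKCD201+ replicate 1. With a pseudocount of 0.1 they were also called (1.20 and 1.01). D5-LSKCD201- cells had Cd9 called higher and 6 genes lower than FL-LSKCD201+ (18.6% and 18.7% of all genes), and Cd9 higher and 8 lower than BM-LSKCD201+ (23.0% and 26.3%). Slamf1 and Cd27 are again among the lower ones through FL or BM alone, which leaves 4 and 6 of 8, with 16.8% and 25.0% of all genes above the filter in both groups.

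Across the 15 sorted libraries, the genes that moved most alike were Cd34 with Cd47 (Pearson r = 0.95), Cd93 with Esam (0.95), Cd34 with Cd93 (0.93), Ly6a with Cd34 (0.93), Slamf1 with Cd27 (0.91) and Ly6e with Cd24a (0.90). Ly6a and Ly6e had an r of 0.56, and Cd9 had a negative r with each of the others, down to -0.88 with Slamf1. These values describe 5 groups of 3 libraries, whose members are not independent points. Among 14457 genes, those most like Ly6a were Rcn2 (r = 0.991), Islr (0.990) and Ank (0.988), those most like Cd34 were Ctso (0.995), Ypel5 (0.995) and Rab8b (0.994), and those most like Slamf1 were S100a8 (0.994), Slc25a37 (0.994) and S100a9 (0.993). S100a8 and S100a9 code for the calgranulins of neutrophils, and S100a8 is one of the neutrophil and macrophage markers counted above in FL-LSKCD201+. None of these 9 genes was among the 3 most alike by rank correlation.

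On OP9, 4 of the 8 genes tested were called higher than on gelatin, and none was called lower. Without Cd93, which passed the filter through OP9 alone, 3 of 7 were called higher, with 1.38% of all genes above the filter in both groups. Cd93 was at 2.75, 2.93 and 2.35 FPKM in the 3D+OP9 libraries and 0.290, 0.230 and 0.130 in the 3D+0.1%gel libraries, 12.4-fold higher by mean FPKM (1.59 ± 0.12, or 3.16 with a pseudocount of 0.1). No test is given for it. Cd34 was at 8.03, 9.31 and 9.65 on OP9 and 0.850, 1.15 and 1.28 on gelatin, 8.23-fold higher (2.26 ± 0.13, adjusted p = 0.000623). Neither gene's groups overlapped. Esam was at 5.35, 6.34 and 6.81 on OP9 and 1.49, 0.610 and 0.640 on gelatin, 6.75-fold higher (1.93 ± 0.19, adjusted p = 0.00241). Ly6a was at 5.52, 4.05 and 8.69 on OP9 and 0.450, 0.410 and 1.5 on gelatin, 7.74-fold higher (1.99 ± 0.30, adjusted p = 0.00995), and the call was lost without 3D+0.1%gel replicate 2 (1.84, adjusted p = 0.0579), with adjusted p from 0.00203 to 0.0579 over all alternatives. Of all 12958 genes tested, 2.11% were called higher on OP9 and 0.509% lower.

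The other members did not pass the test in the coculture. Cd24a, the most abundant, was at 226, 226 and 176 FPKM on OP9 and 166, 172 and 162 on gelatin (0.32 ± 0.11, adjusted p = 0.132). Over all alternatives the Cd24a difference ranged from 0.25 to 0.44 (limma adjusted p from 0.00705 to 0.362), under the fold threshold. Ly6e was at 56.9, 51.1 and 66.9 on OP9 and 73.5, 69.8 and 75.5 on gelatin, with every OP9 library below every gelatin library (-0.33 ± 0.10, adjusted p = 0.117). Cd9 overlapped between the groups (0.44 ± 0.30, adjusted p = 0.439), and Cd47 did not (0.58 ± 0.17, adjusted p = 0.0881). Over all alternatives the Cd9 difference ranged from 0.16 to 0.73 (limma adjusted p from 0.0237 to 0.759), under the fold threshold. Cd27 reached at most 0.12 FPKM and Slamf1 was listed above 0 in 1 of 6 libraries (0.04), so neither was tested. Beside these genes, 8 endothelial markers summed to 81.9 to 99.6 FPKM on OP9 against 9.97 to 21.3 on gelatin, and 8 stromal markers to 58.2 to 69.4 against 25.7 to 37.0. Erythroid markers summed to 191 to 700.2 FPKM on OP9 and 4.70 to 18.9 on gelatin, and blood progenitor markers to 22.9 to 30.1 and 10.4 to 11.8. None of these 4 lists of 8 genes held a gene at 0 throughout. The 8 pluripotency markers summed to 826 to 1657 FPKM on OP9 and 1277 to 1366 on gelatin. Stromal cells of the mouse also carry Sca-1. The part of endothelial cells, blood cells, pluripotent cells and the OP9 layer in these values was not tested.

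**Figure D4:**
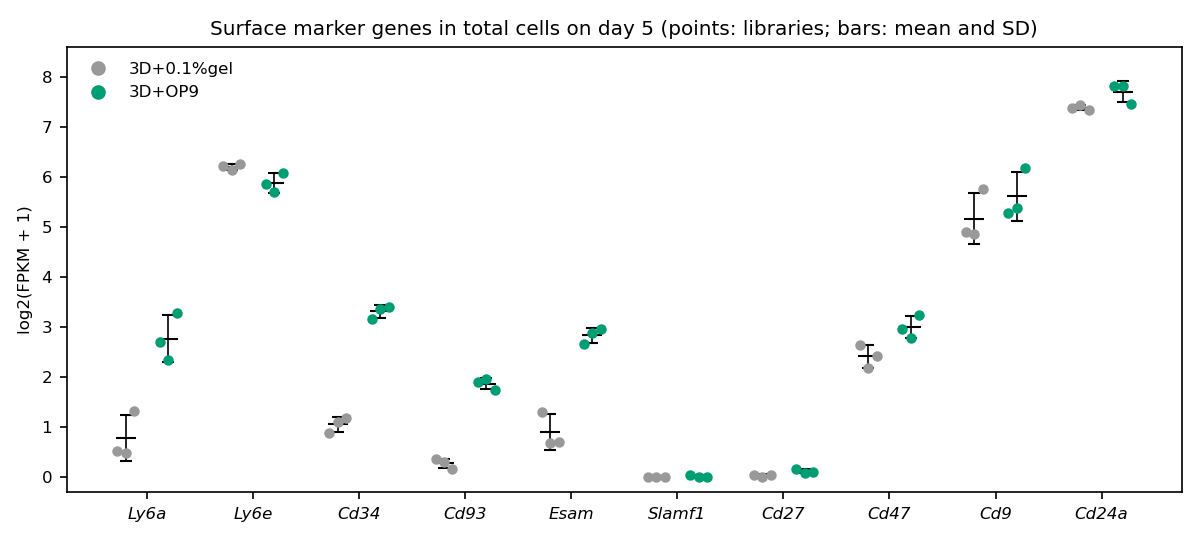
Level of each gene as log2(FPKM + 1) in the 3 libraries of total cells on OP9 and the 3 on 0.1% gelatin, with 1 point for each library and bars for the mean and SD of the log2 values. Cd34, Cd93, Esam and Ly6a are higher on OP9 in all 3 libraries (Cd34 FPKM 8.03 to 9.65 against 0.85 to 1.28), and Slamf1 and Cd27 are near 0 in both groups.

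The relatives of the members were read from lists of genes fixed by family. Of 24 other Ly6 and uPAR domain genes, 7 were above 0.5 FPKM in both D5 groups, and 5 of them rose in D5-LSKCD201+ and none fell, with 10.8% and 9.04% of all genes above the filter in both groups. Over all 13 tested the count was 6 higher and 2 lower, with 10.8% and 13.9% of all genes tested, and the number lower was 5 of 17 on a TPM scale. Ly6h was higher by 3.45 ± 0.14 (adjusted p = 1.15e-06) and Ly6c1 by 2.70 ± 0.08 (adjusted p = 3.67e-07). Another 6 passed the filter through one group alone, so only levels are given. Lypd6b was at 0, 0.0222 and 0.0210 FPKM with CD201 and 1.92, 2.37 and 1.64 without it, and Cd59b at 0.115, 0 and 0.134 and 1.34, 1.44 and 2.58. The reverse held for Gpihbp1, the anchor of lipoprotein lipase on capillary endothelium, which was at 19.8, 22.0 and 20.2 FPKM in D5-LSKCD201+ libraries and 0.213, 0.477 and 0.581 without CD201. Ly6c1, a Ly6 protein found on endothelial cells and leukocytes, was at 69.3, 60.9 and 64.2 FPKM for D5-LSKCD201+, 8.33, 10.01 and 9.13 for D5-LSKCD201-, 1.95, 2.45 and 2.68 for BM-LSKCD201+ and 2.44, 1.34 and 1.45 for FL-LSKCD201+. Ly6c2, a marker of monocytes, was highest in FL-LSKCD201+ at 48.1, 48.8 and 54.5 FPKM, and the D5-LSKCD201+ level differed from it by -3.17 (adjusted p = 2.43e-06). Against BM-LSKCD201+, 4 genes of the family were above 0.5 FPKM in both groups, of which 3 were higher in D5-LSKCD201+ and 1 lower (13.7% and 23.6% of all such genes). None of the genes called in the lists of relatives and partners turned its direction under quantile normalization or on a TPM scale.

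Of 11 SLAM family receptors and adaptors, none was tested between the D5 groups, since each was below a mean of 0.5 FPKM, and 7 were listed at 0 in every D5-LSKCD201+ library. In the comparisons of D5-LSKCD201+ with FL and BM, every SLAM gene that was tested passed the filter through FL or BM alone, so only levels are given. Cd48, which marks progenitors that have left the HSC state, was at 35.3, 35.8 and 34.4 FPKM for BM-LSKCD201+ and 62.8, 49.7 and 53.2 for FL-LSKCD201+, with FL higher by 0.63 (adjusted p = 0.00185) and not called. Ly9 was at 20.4, 22.6 and 23.1 for BM-LSKCD201+ and 10.3, 6.65 and 6.73 for FL-LSKCD201+, and Cd84 at 20.5, 17.6 and 17.6 and 9.03, 8.48 and 8.84. Of 6 genes above 0.5 FPKM in both FL and BM, 2 were lower in FL, namely Cd244a (-1.75, adjusted p = 5.98e-05) and Ly9 (-1.40, adjusted p = 0.000368), with 10.8% of all such genes. In the coculture 1 was tested and none was called.

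Of 10 relatives of CD34, CD93 and ESAM, 9 were above 0.5 FPKM in both D5 groups, and 3 rose and 2 fell in D5-LSKCD201+ relative to its CD201- counterpart, with the same 10.8% and 9.04% of all genes. Clec14a, a lectin of the CD93 family on endothelium, was higher by 5.04 ± 0.07 (adjusted p = 3.34e-08), Thbd (thrombomodulin, of the same family) by 2.67 and the junctional adhesion molecule F11r by 1.63. The adhesion molecule Jam2 (-2.86) and the CD34 relative podocalyxin, Podxl (-1.08), were lower, so the family moved in both directions where Cd34, Cd93 and Esam all rose. Against BM-LSKCD201+, 5 of 6 above the filter in both groups were higher and none lower (13.7% and 23.6% of all such genes), led by Clec14a (5.76, adjusted p = 3.36e-08).

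Of 23 tetraspanins, the family of Cd9, 12 were higher in D5-LSKCD201+ than in D5-LSKCD201- and 1 was lower, with a median of 1.19 and of -0.12 over all genes tested. All 23 were above the filter in both groups, where 10.8% of all genes were higher and 9.04% lower. Tspan18 (4.35 ± 0.09, adjusted p = 6.84e-08), Tspan8 (4.10) and Cd53 (3.65), a leukocyte tetraspanin, had the largest rises, and Tspan7 was the gene that fell (-2.42). Cd9 was lower as well, as given above. Against BM-LSKCD201+, 19 were above 0.5 FPKM in both groups, and 6 of these were higher, led by Tspan8 (4.98), and 7 lower, led by the leukocyte genes Tspan32 (-5.94) and Cd37 (-5.44), with 13.7% and 23.6% of all such genes. Tspan18 passed through D5-LSKCD201+ alone.

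**Figure D5:**
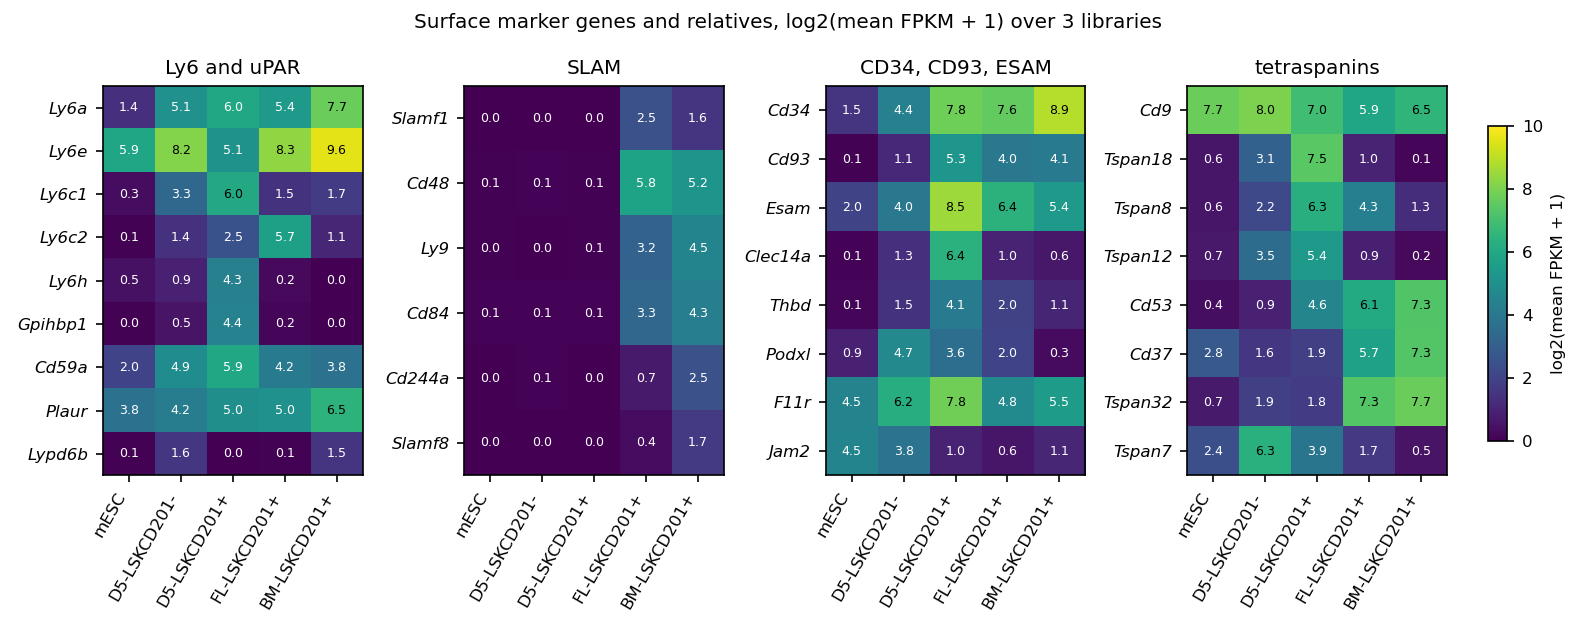
Mean FPKM of 3 libraries (colour and printed value, log2 of the mean + 1) in the 5 sorted-cell groups, for members and for relatives chosen by the size of their differences. Ly6c1 and Gpihbp1 are highest in D5-LSKCD201+, the SLAM family genes are near 0 outside FL and BM, and Tspan18 and Clec14a are highest in D5-LSKCD201+.

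The genes for binding partners of the members were read as ligands and receptors. Mmrn2, the matrix ligand of CD93 and CLEC14A, was at 115, 115 and 110.5 FPKM for D5-LSKCD201+ and higher than in D5-LSKCD201- by 4.47 ± 0.06 (adjusted p = 3.34e-08). Igfbp7, another ligand of CD93, was higher than in BM-LSKCD201+ by 4.03 (adjusted p = 3.79e-07). Of 12 partners tested between the D5 groups, 2 were higher (Mmrn2 and Itgb1) and none lower, with 10.8% and 9.04% of all genes above the filter in both groups. Of those above the filter in both groups, 1 of 10 was higher and 5 lower against FL-LSKCD201+ (12.2% and 15.8% of all such genes), and 2 of 11 were higher and 3 lower against BM-LSKCD201+ (13.7% and 23.6%). Sirpa, the receptor of CD47 on phagocytes, was at 23.2, 20.4 and 19.8 FPKM for FL-LSKCD201+, 12.3, 12.2 and 10.8 for BM-LSKCD201+ and 4.98, 4.75 and 4.16 for D5-LSKCD201+. Cd70, the ligand of CD27, was listed at 0 in 14 of the 15 sorted libraries. On OP9, Itgb3, the beta chain of the vitronectin receptor, and Mmrn2 were called higher but passed the filter through OP9 alone, and none of the 11 other partners tested was called (1.38% and 0.499% of all genes above the filter in both groups).

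Among 30 other HSC and progenitor surface markers, 19 were above 0.5 FPKM in both D5 groups, and 9 of these were higher in D5-LSKCD201+ and none lower, with 10.8% and 9.04% of all such genes. Eng (endoglin, 4.11), Tek (the angiopoietin receptor, 4.07) and Procr (3.76), which codes for CD201, came first. The sort set the direction of Procr, and without it 8 of 18 were higher. Against BM-LSKCD201+, 17 were above the filter in both groups, of which 6 were higher, led by Cd38 (5.15), Tek (4.64) and Pecam1 (2.94), and 8 lower, led by Adgrg1 (-6.22), with 13.7% and 23.6% of all such genes. Tek and Pecam1 are also endothelial genes. On OP9, 5 of 17 above the filter in both groups were higher than on gelatin and none lower (1.38% and 0.499% of all such genes), led by Pecam1 (2.65) and Tek (2.49).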

How the data were processed

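FPKM were deposited by the authors for each gene and library. Per the submitters' processing notes, HISAT2 2.0.5, StringTie 1.3.3 and Cuffdiff 1.3.0 were used, and the sorted-cell table gives GRCm38 loci. The coculture table lists 22899 genes, of which 3578 have no value. The 2 tables were normalized separately, so tests stayed within a table. Depth is unknown, and no intervals are given for single FPKM. Groups and replicates came from the labels.

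FPKM were taken to log2 with a pseudocount of 1. Genes whose mean reached 0.5 FPKM in the 6 libraries of a comparison were tested by limma 3.58.1 (trend, two-sided) in R 4.3.3 in 11 pairwise comparisons, with Benjamini-Hochberg adjustment over all genes tested. The call was an adjusted p under 0.05 with a log2 difference of at least 1, and the procedure was tested on simulated data. An exact permutation test of 3 against 3 libraries cannot go below 0.1. Plots were made in Python 3.11.15 with matplotlib 3.10.9. Promoters came from RefSeq (GRCm38.p6), and gene positions from GENCODE M21.

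The members and lists were chosen with earlier results of these data known. The genes named are the members, the 3 genes most like Ly6a, Cd34 and Slamf1, and at most 3 listed genes in each direction with the largest differences in a comparison described. Marker genes (Ptprc, Cdh5, Pou5f1), Sirpa, Cd70, Ly6c1 levels and Cd48 between FL and BM were named after their values were seen. An item that the rule would name is not reported here. Between FL-LSKCD201+ and BM-LSKCD201+ the deviations of same-numbered replicates correlated at 0.24, 0.20 and 0.16, each over the 0.1 set by the rule for pairs. The library of the same number was not the best match for every replicate there, so pairing was not established. The values printed are those without the replicate block, which changed no call of a member. Alternatives were another pseudocount or filter, quantile normalization, a TPM scale, a constant prior variance, a replicate block, 1 fit over the 5 sorted groups, adjusted p alone and leaving out each replicate. Counts over genes above 0.5 FPKM in both groups were made, and averaging the closest pair of replicates was added, after seeing the data.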

Additional observations from a re-analysis of the deposited data

Results flagged for a closer look

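Ly6e and Cd9 lay below mESC in every D5-LSKCD201+ library and above it in every D5-LSKCD201- library, and the test of the difference is the comparison of the D5 groups themselves. For Ly6e the log2 difference from mESC was -0.76 for D5-LSKCD201+ and 2.28 for D5-LSKCD201-, and the D5 groups differed by -3.04 (adjusted p = 1.28e-07 by limma), with all 3 D5-LSKCD201+ libraries lower. For Cd9 the values were -0.80 and 0.27, and the D5 groups differed by -1.07 (adjusted p = 0.000208 by limma), again with all 3 D5-LSKCD201+ libraries lower. That call was lost at -0.92 without D5-LSKCD201- replicate 2, at -0.97 under quantile normalization and at -0.98 on a TPM scale. Of the 4 differences from mESC, that of Ly6e in D5-LSKCD201- was the one called. Both D5-LSKCD201+ differences were under the fold threshold. The Cd9 difference of D5-LSKCD201- from mESC had an adjusted p of 0.0948 by limma, and ranged from 0.12 to 0.37 over all alternatives. Both comparisons use the same mESC libraries, and D5-LSKCD201- libraries carried the pluripotency markers given in the report, whose part in these values was not tested.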

How the results depend on the processing

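Depth is unknown, so values near 0 (Slamf1 and Cd27 in the D5 groups and mESC) have no stated precision. Of the fold changes of the members over all alternatives, 1575 kept their direction and their side of the thresholds, 8 lost a call, 25 gained one and 1 reversed. That 1 was the uncalled Cd93 difference of FL-LSKCD201+ from BM-LSKCD201+, which was 0.072 under quantile normalization. Cd93 in D5-LSKCD201- against mESC could not be tested in some settings because its mean fell below the filter, nor Slamf1 at a filter of 1 FPKM in the 3 comparisons of BM-LSKCD201+ with the D5 groups and mESC. With an adjusted p alone, 8 members were called in D5-LSKCD201+ against mESC (5 with the fold threshold) and 9 in FL-LSKCD201+ against BM-LSKCD201+ (4 with it). All genes called by adjusted p alone numbered 891 in OP9 against gelatin (339 with the fold threshold), 9349 in D5-LSKCD201+ against D5-LSKCD201- (3379 with it), 11496 in D5-LSKCD201+ against mESC (5056), 7418 in D5-LSKCD201- against mESC (1949), 9823 in D5-LSKCD201+ against FL-LSKCD201+ (4727), 11486 in D5-LSKCD201+ against BM-LSKCD201+ (6159), 7446 in FL-LSKCD201+ against BM-LSKCD201+ (2581), 9680 in D5-LSKCD201- against FL-LSKCD201+ (5351), 11570 in D5-LSKCD201- against BM-LSKCD201+ (7162), 10813 in FL-LSKCD201+ against mESC (5892) and 12261 in BM-LSKCD201+ against mESC (7485). The OP9 count was 531 with a pseudocount of 0.1, and ranged from 209 to 444 with each replicate left out, the lowest without 3D+0.1%gel replicate 2. With the replicate block, 379 genes were called in OP9 against gelatin and 2607 in FL-LSKCD201+ against BM-LSKCD201+, and the block changed no member's call in any of the 11 comparisons. Outside that last comparison, same-numbered replicates did not all correlate over 0.1, and within it the same number was not always the best match. Likeness moved for all 9 named genes by rank correlation, where the cause was not tested.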
